A study of Mus musculus with 6 samples.

Results

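The cells described here are bone marrow barcodes that carry natural killer (NK) cell receptors but little or no granzyme A. They were chosen by raw UMI counts (unique molecular identifiers, which count captured mRNA molecules). A barcode needed at least 500 genes, at least 1000 UMIs and at most 10% of UMIs from mitochondrial genes. It then needed at least 3 UMIs summed over Klrd1, Ncr1 and Klrb1c, at most 1 UMI of Gzma, at most 2 UMIs summed over Cd3d, Cd3e and Cd3g, and at most 1 UMI of Siglech. The rule took 1544 of the 44399 barcodes past the cell filter, and 6559 others met it except that they held more Gzma; these are called Gzma-high NK cells below. The 8 genes of the rule chose the cells, so their values are given only as a description and no test of them is reported. They were not taken out of the edgeR fits or the gene lists, so the counts of tested and called genes can include them.

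The series holds 6 single-cell 3' RNA libraries of mouse bone marrow that was enriched and sorted by flow cytometry, 3 from wild-type (WT) mice and 3 from Txnip knockout (Txnip-KO) mice. The labels do not name the population that was sorted, the strain, the age or the part of Txnip that was deleted, and they do not say whether the samples are separate animals. The p-values therefore measure the spread between these samples, which may be technical. The study compared the 2 genotypes cell by cell, and the question for these cells is which of their genes and how many of them differ without Txnip. Of the barcodes past the filter 186 occurred in more than 1 library, and 0 barcodes were Gzma-low in 2 of them. In each pair of libraries 0 to 3 barcodes were Gzma-low in one and a cell outside the set in the other. Each sample gave 183 to 404 Gzma-low cells and 1425136 to 2291863 UMIs in them.

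NK cells are innate lymphocytes that kill infected or transformed cells with perforin and granzymes and release interferon gamma and chemokines. In mouse bone marrow they pass from progenitors that express interleukin-7 receptor to immature NK cells and then to mature cells. The mature cells take on Ly49 (Klra) receptors, Eomes and granzymes. Type 1 innate lymphoid cells (ILC1) share Ncr1 and Klrb1c (the NK1.1 antigen) with NK cells, but keep interleukin-7 receptor and Cxcr6 and are low in Eomes. Txnip, the thioredoxin-interacting protein, belongs to the arrestin family. It binds thioredoxin and lowers glucose uptake, and its gene is driven by the glucose-sensing pair MondoA and Mlx.

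In GRCm38 coordinates of the GENCODE M21 annotation, which was matched to the deposited gene identifiers, Klrd1 (CD94) lies at chr6:129591782-129598775 and Klrb1c at chr6:128778485-128789215, both in the NK gene complex of chromosome 6, while Ncr1 (NKp46) lies at chr7:4337724-4345164 on chromosome 7. Gzma lies at chr13:113093825-113100981, Xcl1 at chr1:164931644-164935527, Il7r at chr15:9505788-9530176 and Txnip at chr3:96557957-96561883. All of these values count the 3' ends of protein-coding transcripts. The Klra, Klrb1, Klrc, H2-Q and histone genes and the pair Ccl3 and Ccl4 have near-identical copies, so the split of reads between such copies is uncertain.

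The label was checked first, and it fitted only some of the cells. A UMI of Klrd1 was present in 89.0% to 94.6% of the Gzma-low cells of a sample, of Ncr1 in 54.1% to 79.1%, of Klrb1c in 53.0% to 78.8%, of Xcl1 in 41.0% to 65.3% and of Eomes, the NK lineage factor, in 24.5% to 34.7%. Of the 1544 cells, 394 met the rule through Klrd1 alone, with no UMI of Ncr1 or Klrb1c. These Klrd1-only cells held Cd74, the invariant chain of MHC class II, at 4376 CPM (UMIs of a gene per 1000000 UMIs) on average over the 6 samples. Dntt, the lymphoid DNA polymerase TdT, stood at 853 CPM and Flt3, a receptor of early progenitors and dendritic cells, at 231 CPM in them. Xcl1, by contrast, stood at 8.23 CPM and Prf1 (perforin) at 3.18 CPM. These values go against an NK label for the Klrd1-only cells, and the whole set is therefore called Gzma-low NK-gated cells.

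A narrower set was therefore followed beside the whole one. It keeps the 1019 Gzma-low cells that have a UMI of Ncr1 or Klrb1c and are not among the barcodes with the highest doublet scores, and these are called receptor-positive cells. There were 131, 94 and 103 of them in the WT samples and 131, 261 and 299 in the Txnip-KO samples. This set was chosen after the values were seen. Gene lists are counted in both sets below, and a value given with no set named is of the whole set.

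Markers of several other cell types differed between the genotypes in the whole set. The 7 dendritic cell and monocyte markers (all 7 detected) summed to 4361 to 6779 CPM in WT and 2723 to 4749 CPM in Txnip-KO samples, and 38.6 to 53.6% of WT but 24.8 to 31.7% of Txnip-KO cells held 5 or more of their UMIs. The 11 B-lineage markers (all 11 detected) passed that level in 25.2 to 35.2% of WT and 8.91 to 15% of Txnip-KO cells, with summed levels of 506 to 709 and 489.8 to 2468 CPM. For the 6 plasmacytoid dendritic markers (all 6 detected) the shares were 12.4 to 21.9% and 3.22 to 7.06%, with sums of 269.6 to 575 and 82.8 to 207 CPM. Shares of this kind, here and below, count raw UMIs and so depend on depth, and none was made at equal depth. Median UMIs per cell averaged 7042 in WT and 4621 in Txnip-KO samples, and 5247 and 4001 in the receptor-positive cells. The part of depth was not tested. In all 3 lists the share of cells was lower in every Txnip-KO than in every WT sample. The 9 stem and progenitor markers (all 9 detected) went the other way in their sums, at 402, 413 and 474 CPM in the WT and 598, 596 and 502 CPM in the Txnip-KO samples without overlap, while 19.8 to 31.1% of WT and 13.4 to 20.6% of Txnip-KO cells held 5 or more of their UMIs. Of that list edgeR called 4 of 8 tested genes higher (Adgrg1, Kit, Meis1 and Hlf) and 0 lower, and 0 of 5 in the receptor-positive cells.

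These lists were also read in the receptor-positive cells. The dendritic and monocyte list summed to 599 to 978 CPM in WT and 271 to 475 CPM in Txnip-KO samples, and 14.9 to 17.5% against 3.82 to 9.58% of cells held 5 or more UMIs. The B-lineage list (10 of 11 detected, Ms4a1 at 0) reached that level in 3.19 to 8.40% and 1.0 to 4.98% of cells, and summed to 292 to 429 CPM in WT and 179.8 to 4495 CPM in Txnip-KO samples. The highest of these sums was that of Txnip-KO 2, where the plasma cell list, mostly immunoglobulin, reached 2612 CPM, and it was above the 2468 CPM of the same sample in the whole set. The plasmacytoid list summed to 55.1 to 182 CPM in WT and 25.3 to 30.7 CPM in Txnip-KO samples, with Ly6d its 1 tested gene, which fell, and the stem and progenitor list to 122 to 175 and 151 to 173 CPM. Of the T cell list, 8 of 11 markers were detected and Cd3e, Cd5 and Cd8a were at 0 in all 6 samples. Its sum was 514 to 592 CPM in WT and 426 to 620.3 CPM in Txnip-KO samples. Of the receptor-positive cells, 19.1 to 30.5% in WT and 8.36 to 21.4% in Txnip-KO samples held 5 or more UMIs of the T cell list, with overlap. The rule itself caps Cd3d, Cd3e and Cd3g of the T cell list and Siglech of the plasmacytoid list, so low values of these genes were set in advance. The part of these other cell types in the genotype differences below was not tested beyond the values of both sets.

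The cells beside each limit of the rule are described here without a test. Barcodes just outside the receptor limit, with 2 UMIs of the NK receptors, had a UMI of Xcl1 in 0 to 6.52% of cells per sample and Cd74 at 1056 to 2084 CPM. Those just inside, with 3, had Xcl1 in 2.33 to 14.0% and Cd74 at 1725 to 5068 CPM. Cells with class II genes thus lay on both sides of that limit. At the Gzma limit, cells with 1 UMI had Eomes in 52.6 to 65.7% and Ccl5 at 5241 to 8264 CPM, and cells with 2, just outside, had Eomes in 56.2 to 80.6% and Ccl5 at 5158 to 14816 CPM. Cells without a Gzma UMI had Eomes in 19.9 to 32.0%.

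Set beside the Gzma-high NK cells of the same samples, the Gzma-low cells were low in the products of mature NK cells. Averaged over 6 samples, Prf1 was at 52.6 CPM in Gzma-low and 441 CPM in Gzma-high cells, Gzmb (granzyme B) at 13.3 and 289 CPM, and Klrg1, a receptor of late NK cells, at 0.741 and 29.4 CPM. The Ly49 receptors Klra8 and Klra4 were at 95.7 and 148 CPM against 571 and 754 CPM. Ccl5 was at 3507 against 11391 CPM and Eomes at 99.1 against 267 CPM. Xcl1, a marker given for these cells, stood at 295 and 332 CPM and did not separate the 2 whole sets. In the receptor-positive cells Xcl1 averaged 622 CPM, above the Gzma-high mean. There Prf1 averaged 108, Gzmb 26.1, Klrg1 1.45, Klra8 189, Klra4 284, Ccl5 7212 and Eomes 157 CPM. Each of these means lay above that of the whole set and below that of the Gzma-high cells.

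Other genes stood higher in the Gzma-low cells. Il7r, the interleukin-7 receptor of lymphoid progenitors and ILCs, was at 381 against 28.0 CPM, Cxcr6, a chemokine receptor of ILC1, at 74.9 against 2.12 CPM, Rora at 80.1 against 18.8 CPM and Inpp4b at 33.1 against 5.29 CPM. In the receptor-positive cells Cxcr6 averaged 155 CPM and Il7r 627 CPM, so these genes do not come from the Klrd1-only cells alone. Cd74, at 1752 against 63.3 CPM, fell to 209 CPM in them. Trgc4, a T cell receptor gamma gene, was at 55.8 against 2.59 CPM and averaged 117 CPM in the receptor-positive cells. Since the rule itself splits these sets by Gzma, the differences are a description and carry no test.

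**Figure D1:**
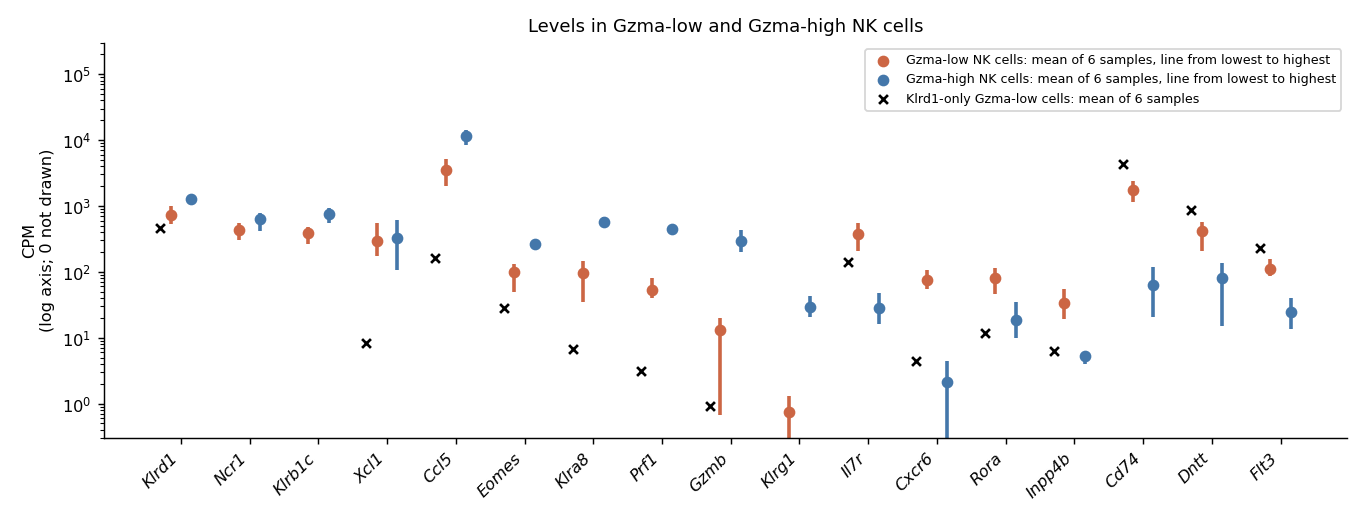
Mean CPM (log axis) of the named genes over the 6 samples in Gzma-low and Gzma-high NK-gated cells, with lines from the lowest to the highest sample, and in the Klrd1-only Gzma-low cells (crosses). Gzmb, Prf1 and Klrg1 sit lower and Il7r, Cxcr6 and Cd74 higher in Gzma-low cells, and the Klrd1-only crosses lie above both for Cd74, Dntt and Flt3.

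The share of Gzma-low cells in the sorted marrow did not overlap between the genotypes. They were 3.08, 2.44 and 2.70 in the WT and 3.21, 4.19 and 4.91 in the Txnip-KO samples, in percent of the barcodes past the cell filter. The Txnip-KO values all lay above the WT values, though Txnip-KO 1 lay just above WT 1. The means were 2.74 ± 0.321 in WT against 4.10 ± 0.850 in Txnip-KO samples (SD, n = 3 each), with an exact 2-sided permutation p of 0.1, the smallest that 3 samples against 3 can give. With receptor-positive cells alone the share was 1.65 ± 0.406 in WT against 3.12 ± 0.878 in Txnip-KO samples (SD, n = 3 each), p = 0.1 by the same exact test. Where no Gzma UMI was allowed, it was 2.49 ± 0.196 in WT against 3.51 ± 0.728 in Txnip-KO samples (SD, n = 3 each), and the groups overlapped (exact permutation p = 0.2). Where at least 5 NK receptor UMIs were asked for, it was 2.42, 1.68 and 1.82 in the WT and 2.38, 3.46 and 4.07 in the Txnip-KO samples, with WT 1 above Txnip-KO 1 (exact permutation p = 0.2). Gzma-high NK cells were 14.2 ± 2.50 in WT against 15.4 ± 4.23 in Txnip-KO samples (SD, n = 3 each), exact permutation p = 0.8.

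As a share of all NK-gated cells, the Gzma-low cells were 15.9, 17.6 and 15.2 in the WT and 17.1, 27.3 and 20 in the Txnip-KO samples (in percent), with the groups overlapping and Txnip-KO 2 far above the rest. The means of 16.3 ± 1.22 in WT against 21.5 ± 5.27 in Txnip-KO samples (SD, n = 3 each) gave an exact permutation p of 0.2. The difference of 5.22 points was 2.3 without Txnip-KO 2. Txnip-KO cells were shallower, with median UMIs per Gzma-low cell of 7042 ± 409.9 in WT against 4621 ± 766 in Txnip-KO samples (SD, n = 3 each) (exact permutation p = 0.1, no overlap). With every cell thinned to 2000 UMIs before the rule was applied, the share was 17.6 ± 1.03 in WT against 25.5 ± 4.52 in Txnip-KO samples (SD, n = 3 each), and the groups did not overlap (exact permutation p = 0.1). Ncr1, one of the 3 genes that admit a cell, was itself at 806 CPM in WT and 460.2 CPM in Txnip-KO Gzma-high NK cells, and its part in the share was not tested.

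The makeup of the Gzma-low cells was compared next. Klrd1-only cells were 26.2, 42.6 and 41.3 in the WT and 29.3, 16.4 and 15.8 in the Txnip-KO samples, in percent of the Gzma-low cells. WT 1 lay below Txnip-KO 1, so the groups overlapped (exact permutation p = 0.2). Cells with at least 2 UMIs summed over dividing-cell genes were 12.9, 16.9 and 18.4 in the WT and 4.88, 9.04 and 3.96 in the Txnip-KO samples (in percent), lower in every Txnip-KO than in every WT sample. Their means were 16.1 ± 2.85 in WT against 5.96 ± 2.71 in Txnip-KO samples (SD, n = 3 each), exact permutation p = 0.1, and 6.08 ± 2.10 in WT against 1.77 ± 0.688 in Txnip-KO samples (SD, n = 3 each) at 2000 UMIs per cell. In receptor-positive cells dividing cells were fewer, 4.21 ± 0.892 in WT against 2.01 ± 1.64 in Txnip-KO samples (SD, n = 3 each), and the groups overlapped (exact permutation p = 0.2). At 2000 UMIs they were 1.85 ± 0.972 in WT against 0.246 ± 0.214 in Txnip-KO samples (SD, n = 3 each) without overlap. The single values were 1.54, 1.08 and 2.94 in the WT and 0, 0.392 and 0.346 in the Txnip-KO samples (in percent). They rest on very few dividing cells per sample.

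The receptor-positive cells were split by whether they held a UMI of Eomes, which set apart 351 cells with it and 668 without. Cells without an Eomes UMI were 58.8, 60.6 and 59.2 in the WT and 67.2, 73.2 and 64.9 in the Txnip-KO samples (in percent), lowest in the 3 WT samples. The means were 59.5 ± 0.971 in WT against 68.4 ± 4.28 in Txnip-KO samples (SD, n = 3 each), exact permutation p = 0.1. This split depends on depth: at 2000 UMIs a cell, a UMI of Eomes was present in 20.4% ± 3.82 in the WT and 20.4% ± 2.38 in the Txnip-KO samples (SD, n = 3 each; 40.5% and 31.6% before thinning). At equal depth the mean shares of both genotypes were thus alike.

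**Figure D2:**
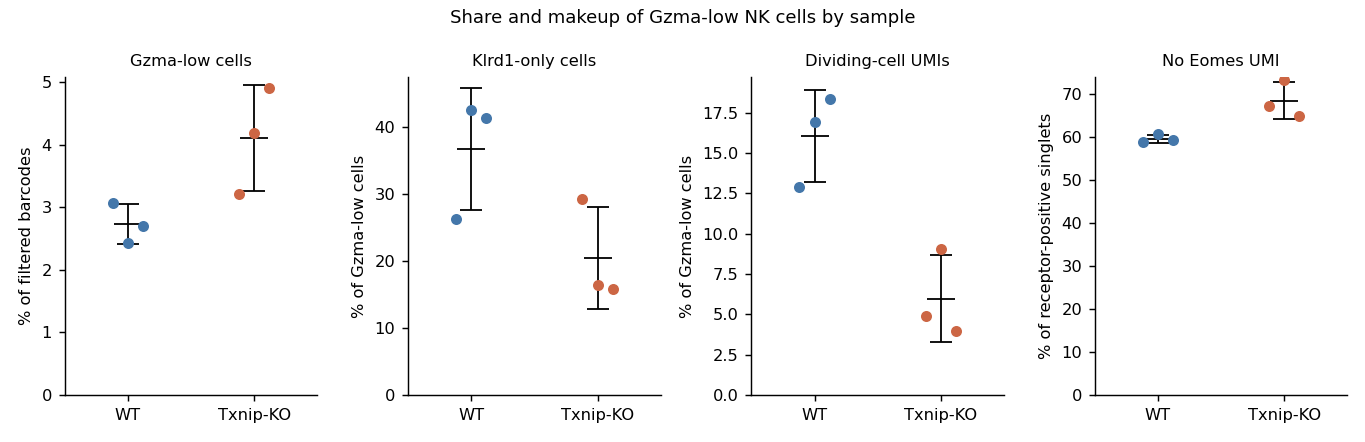
Percent of barcodes past the filter that were Gzma-low, percent of Gzma-low cells that were Klrd1-only or held dividing-cell UMIs, and percent of receptor-positive cells without an Eomes UMI (vertical axes), with 1 point per sample, the mean and its SD for WT and Txnip-KO. The first panel shows Txnip-KO above WT and the third Txnip-KO below WT without overlap, while the Klrd1-only shares overlap.

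Txnip itself was measured first in each sample. In the summed UMIs of the Gzma-low cells it stood at 293, 198 and 259 CPM in the WT samples against 9.40, 7.41 and 0.431 CPM in the Txnip-KO samples. Values of a gene are listed in the order of samples 1, 2 and 3, and CPM values by genotype are scaled by the trimmed mean of M-values (TMM) throughout. Every Txnip-KO sample was far below every WT sample. The level fell from 250.1 ± 48.1 to 5.75 ± 4.71 CPM (SD, n = 3 each; log2 fold change -5.54 with SE 0.36, edgeR adjusted p = 2.65e-06). A UMI of Txnip was present in 67.8 to 79.2% of WT and 0.248 to 6.83% of Txnip-KO cells. The deleted stretch of the gene is not named, and 3' counts from outside it would check nothing.

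Many genes of these cells differed between the genotypes. UMIs were summed per sample and tested by edgeR's quasi-likelihood test with Benjamini-Hochberg adjustment over all genes tested, and a gene was called at an adjusted p under 0.05. In the whole Gzma-low set 9551 genes were tested, of which 658 (6.89%) were higher and 757 (7.93%) lower in Txnip-KO samples, 14.8% in all. The 2 groups did not overlap in 3342 genes (35.0%). In the receptor-positive cells 7064 genes were tested, of which 331 (4.69%) were higher and 458 (6.48%) lower, 11.2% in all. Counts of called genes in the lists below stand beside these shares of 14.8% and 11.2%. The 2 sets shared 635 called genes, all in the same direction, which is 80.5% of the calls in the receptor-positive cells and 44.9% of the calls in the whole set. With 1 sample left out, the whole set gave 596 calls without WT 3, 662 without WT 2 and 766 without Txnip-KO 3, and the receptor-positive cells gave 375 without WT 1, 391 without WT 3, 408 without Txnip-KO 3 and 437 without Txnip-KO 1. With every cell left out that held 5 or more UMIs of another type's markers, edgeR called 249 of 3544 genes, of which 213 were also called in the whole set, 212 of them in the same direction. In summed UMIs, fewer cells of a type and less RNA per cell cannot be told apart.

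Among the chemokines that NK cells release, Xcl1 fell and Ccl5 rose. Xcl1 (lymphotactin), which attracts cross-presenting dendritic cells, stood at 558, 322 and 348 CPM in the WT samples against 164, 237 and 169 CPM in the Txnip-KO samples. All 3 Txnip-KO samples were below all 3 WT samples. It fell from 409 ± 129 to 190.0 ± 40.6 CPM (SD, n = 3 each; log2 fold change -1.10 with SE 0.19, edgeR adjusted p = 0.00272). Xcl1 went from 933 to 362 CPM in the receptor-positive cells (log2 fold change -1.37 with SE 0.14, edgeR adjusted p = 1.63e-06). Ccl5 (RANTES), stored as mRNA by NK and memory T cells, stood at 3438, 2467 and 2107 CPM in the WT samples against 4131, 3767 and 5124 CPM in the Txnip-KO samples. It was higher in each Txnip-KO sample than in any WT sample and rose from 2671 ± 689 to 4340.5 ± 702 CPM (log2 fold change 0.70 with SE 0.15, edgeR adjusted p = 0.00682). Ccl5 went from 6411 to 8301 CPM in the receptor-positive cells (log2 fold change 0.37 with SE 0.09, edgeR adjusted p = 0.00687). The 2 chemokines thus moved in opposite directions in both sets. Ccl5 lost its receptor-positive call in edgeR fits without Txnip-KO 3 or WT 3 (adjusted p 0.0691 to 0.0786).

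Ccl4, an inflammatory chemokine, stood at 125, 46.3 and 71.2 CPM in the WT samples against 30.9, 47.1 and 31.5 CPM in the Txnip-KO samples. The groups overlapped, with Txnip-KO 2 above WT 2. It fell from 80.7 ± 40 to 36.5 ± 9.20 CPM (log2 fold change -1.14 with SE 0.28, edgeR adjusted p = 0.0166), but the call was lost in edgeR fits without Txnip-KO 1, Txnip-KO 3 or WT 1 (adjusted p 0.0535 to 0.0793). In the receptor-positive cells it fell from 150.0 to 48.6 CPM (log2 fold change -1.68, edgeR adjusted p = 0.00113). Ccl3, its neighbour and near copy, went from 55.8 to 26.9 CPM (log2 fold change -1.02, edgeR adjusted p = 0.0591) and from 68.0 to 23.7 CPM in the receptor-positive cells (log2 fold change -1.59, edgeR adjusted p = 0.0313), past the threshold in the narrower set. Ltb (lymphotoxin beta), which lymphoid progenitors and ILCs express, stood at 651, 489 and 466 CPM in the WT against 494, 581 and 568 CPM in the Txnip-KO samples, with overlap (log2 fold change 0.03, edgeR adjusted p = 0.886). Over the list of 14 cytokines and chemokines, 11 were tested, 1 rose and 2 fell, with a median log2 fold change of 0.03 beside 0.02 over all genes tested. In the receptor-positive cells 1 rose and 4 fell of 10, with a median of -0.20 beside 0.01. Ccl3 lost its receptor-positive call in edgeR fits without Txnip-KO 1, Txnip-KO 3 or WT 1 (adjusted p 0.111 to 0.876).

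Xcl1 was also read as a share of cells. For receptor-positive cells at 2000 UMIs each, the share with a UMI of Xcl1 was 64.6% ± 0.933 in the WT and 43.4% ± 8.0 in the Txnip-KO samples (SD, n = 3 each; 82.0% and 59.3% before thinning), exact permutation p = 0.1. In the whole set it was 39.4% ± 7.06 in the WT and 32.3% ± 7.0 in the Txnip-KO samples (SD, n = 3 each; 53.3% and 45.8% before thinning), and the exact permutation p was 0.4. B-lineage cells of the same samples, which should lack Xcl1, gave 0.342% ± 0.329 in the WT and 0.747% ± 0.750 in the Txnip-KO samples (SD, n = 3 each; 1.5% and 1.37% before thinning). Their median depth was 9131 UMIs in WT and 4760.0 in Txnip-KO samples, beside 5247 and 4001 in the receptor-positive cells.

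More NK receptors rose than fell. Of 32 receptors listed, 24 were tested, 10 rose and 1 fell, with a median log2 fold change of 0.50 beside 0.02 over all genes. In the narrower set 23 were tested, 5 rose and 2 fell, with a median of 0.25 beside 0.01. Klrd1-only cells are poor in these genes. Their share of the Gzma-low cells was smaller in Txnip-KO 2 and 3 than in any WT sample. Their counts were 53, 78 and 81 in the WT and 60, 58 and 64 in the Txnip-KO samples, with overlap. The part of these cells in the rise of the whole set was not tested.

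Klrb1b, an inhibitory receptor that binds the ligand Clr-b, stood at 89.2, 102 and 95.8 CPM in the WT samples against 187, 226 and 257 CPM in the Txnip-KO samples. The groups did not overlap. It rose from 95.5 ± 6.20 to 224 ± 34.9 CPM (log2 fold change 1.23 with SE 0.14, edgeR adjusted p = 0.000191). Klrb1b went from 231 to 409 CPM in the receptor-positive cells (log2 fold change 0.84 with SE 0.15, edgeR adjusted p = 0.00126). Klrc2, which pairs with Klrd1 as the activating NKG2C, stood at 170.4, 111 and 76.7 CPM in the WT samples against 256, 251 and 288 CPM in the Txnip-KO samples, higher in every Txnip-KO sample. Klrc2 rose (log2 fold change 1.16 with SE 0.21, edgeR adjusted p = 0.00305; log2 fold change 0.90, edgeR adjusted p = 0.000428 in the receptor-positive cells). Klrb1f rose from 179 ± 26.9 to 297 ± 42.6 CPM (log2 fold change 0.73, edgeR adjusted p = 0.00438). Klrk1, the activating receptor NKG2D, rose from 608 ± 130.4 to 924 ± 49.3 CPM (log2 fold change 0.61, edgeR adjusted p = 0.0076). Both also passed the test in the receptor-positive cells, at edgeR log2 fold changes of 0.45 (adjusted p = 0.028) and 0.35 (adjusted p = 0.0153). Cd226 (DNAM-1), an activating receptor for nectin ligands, rose from 113 ± 15.7 to 176 ± 21.9 CPM in the whole set (log2 fold change 0.65, edgeR adjusted p = 0.00815) and missed the threshold in the narrower one (log2 fold change 0.39, edgeR adjusted p = 0.0634). Clec2i, which encodes a ligand of the Klrb1 receptor family, stood at 73.9, 73.9 and 62.4 CPM in the WT samples against 196, 175 and 214 CPM in the Txnip-KO samples. Clec2i rose (log2 fold change 1.48 with SE 0.13, edgeR adjusted p = 2.08e-05), and also in the receptor-positive cells (log2 fold change 1.63, edgeR adjusted p = 3.51e-07). Klrb1f lost its receptor-positive call in edgeR fits without Txnip-KO 2, WT 1 or WT 3 (adjusted p 0.0887 to 0.168) and Klrk1 without Txnip-KO 1, WT 1 or WT 3 (adjusted p 0.0532 to 0.119).

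The Ly49 receptors did not move as 1 block. Klra8 (Ly49H), the receptor for a cytomegalovirus protein, stood at 98.3, 35.9 and 51.5 CPM in the WT samples against 139, 101 and 146 CPM in the Txnip-KO samples, without overlap (log2 fold change 1.04 with SE 0.26, edgeR adjusted p = 0.0168). Its call was lost in edgeR fits without Txnip-KO 1, Txnip-KO 3, WT 2 or WT 3 (adjusted p 0.0541 to 0.0779). Among receptor-positive cells it rose from 138 to 245 CPM (log2 fold change 0.79, edgeR adjusted p = 0.00786). Klra3 stood at 72.7, 60.1 and 44.9 CPM in the WT samples against 32.2, 37.5 and 32.3 CPM in the Txnip-KO samples. Klra3 fell and was lower in every Txnip-KO sample (log2 fold change -0.79 with SE 0.18, edgeR adjusted p = 0.0119), a call lost without Txnip-KO 3 (adjusted p = 0.0551). It also fell in the receptor-positive cells (log2 fold change -0.79, edgeR adjusted p = 0.00272). Klra4, Klra7, Klra9 and Klra1 did not pass the test in either set. Klra4 stood at 231, 72.5 and 101 CPM in the WT samples against 135, 129 and 223 CPM in the Txnip-KO samples, with WT 1 the highest of all 6 samples and the groups overlapping (log2 fold change 0.27, edgeR adjusted p = 0.595). Klra8 lost its receptor-positive call in edgeR fits without Txnip-KO 1 or Txnip-KO 3 (adjusted p 0.0599 to 0.0606).

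Another 4 receptors passed the test in the whole set and not in the narrower one. Cd244a (2B4) was at 82.1 and 122 CPM in WT and Txnip-KO (log2 fold change 0.57, edgeR adjusted p = 0.0272), Klrb1a at 111 and 179.5 CPM (log2 fold change 0.69, edgeR adjusted p = 0.0275). Slamf6 was at 29.8 and 49.3 CPM (log2 fold change 0.69, edgeR adjusted p = 0.0359) and Klri2 at 71.8 and 107 CPM (log2 fold change 0.56, edgeR adjusted p = 0.0478). In edgeR fits with 1 sample left out, the call of Cd244a was lost without Txnip-KO 1, WT 2 or WT 3 (adjusted p 0.0773 to 0.133) and that of Klrb1a without Txnip-KO 1, Txnip-KO 2, WT 2 or WT 3 (adjusted p 0.0609 to 0.12). That of Slamf6 was lost without Txnip-KO 1, WT 1, WT 2 or WT 3 (adjusted p 0.0676 to 0.119) and that of Klri2 without Txnip-KO 1, Txnip-KO 2, WT 2 or WT 3 (adjusted p 0.0556 to 0.196). In the narrower set their edgeR adjusted p ran from 0.084 to 0.349. Klrc1 (NKG2A), the inhibitory partner of Klrd1, stood at 231, 213 and 157 CPM in the WT against 257, 259 and 292 CPM in the Txnip-KO samples and just missed the threshold (log2 fold change 0.43, edgeR adjusted p = 0.0522; log2 fold change 0.17, edgeR adjusted p = 0.45 in the narrower set).

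Of the genes that carry the signals of these receptors, the adapters Tyrobp and Fcer1g and the phosphatase Ptpn6 fell and the kinase Txk rose. Tyrobp (DAP12), the adapter of activating Ly49 and NKG2C receptors, stood at 1889, 1984 and 1576 CPM in the WT samples against 1278, 1237 and 1415 CPM in the Txnip-KO samples. It was lower in each Txnip-KO sample than in any WT sample and fell from 1816 ± 214 to 1309.9 ± 93.2 CPM (log2 fold change -0.47 with SE 0.10, edgeR adjusted p = 0.00625). Tyrobp went from 2538 to 1787 CPM in the receptor-positive cells (log2 fold change -0.51 with SE 0.08, edgeR adjusted p = 0.000516). Ptpn6 (SHP-1), the phosphatase of inhibitory receptors, stood at 172, 250.0 and 171 CPM in the WT samples against 103, 116 and 99.2 CPM in the Txnip-KO samples. Ptpn6 fell without overlap (log2 fold change -0.89 with SE 0.15, edgeR adjusted p = 0.00259; log2 fold change -1.0, edgeR adjusted p = 0.00129 in the receptor-positive cells). Fcer1g, the common gamma chain of Fc receptors, fell from 1338 ± 139.8 to 1056 ± 45.6 CPM (log2 fold change -0.34, edgeR adjusted p = 0.0248), a call lost in edgeR fits without Txnip-KO 1, Txnip-KO 3, WT 1 or WT 2 (adjusted p 0.0581 to 0.123). Fcer1g fell in the receptor-positive cells too (log2 fold change -0.35, edgeR adjusted p = 0.0119), a call lost without Txnip-KO 1 or Txnip-KO 3 (adjusted p 0.0546 to 0.0564). Txk, a Tec-family kinase of NK and T cells, stood at 212, 144 and 139 CPM in the WT samples against 329, 338 and 339.7 CPM in the Txnip-KO samples. Txk rose from 165 ± 40.6 to 336 ± 5.80 CPM (log2 fold change 1.02 with SE 0.15, edgeR adjusted p = 0.000853), and also in the narrower set (log2 fold change 0.69, edgeR adjusted p = 0.000556).

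Of the 22 signalling genes listed, all 22 were tested in the whole set, 2 rose and 3 fell, with a median of 0.10. Besides Txk, Hcst (DAP10), the adapter of NKG2D, rose (log2 fold change 0.53, edgeR adjusted p = 0.0256), and its call was lost in edgeR fits without Txnip-KO 2, Txnip-KO 3, WT 2 or WT 3 (adjusted p 0.0547 to 0.126). Hcst was not called in the receptor-positive cells (log2 fold change 0.26, edgeR adjusted p = 0.136). Among receptor-positive cells 1 rose and 4 fell of 21, with a median of 0.05. Zap70, Lat, Lck, Fyn and Cd247 did not pass the test in either set.

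Granule genes split by set. Serpinb9 and Serpinb6b, protease inhibitors that cytotoxic cells carry, were higher. Serpinb9 stood at 83.7, 51.1 and 53.1 CPM in the WT samples against 105, 118 and 119 CPM in the Txnip-KO samples (log2 fold change 0.86 with SE 0.17, edgeR adjusted p = 0.00575). Serpinb6b stood at 97.1, 76.0 and 70.6 CPM in the WT samples against 147, 116 and 163 CPM in the Txnip-KO samples (log2 fold change 0.81 with SE 0.16, edgeR adjusted p = 0.00539). Neither gene overlapped between groups, and in the receptor-positive cells the edgeR log2 fold changes were 0.59 (adjusted p = 0.0143) and 0.49 (adjusted p = 0.0489). Fasl rose from 22.1 ± 9.09 to 40.6 ± 1.56 CPM (log2 fold change 0.87, edgeR adjusted p = 0.0196), a call lost without Txnip-KO 3, WT 2 or WT 3 (adjusted p 0.0561 to 0.0965). Rab27a, which docks granules, rose from 33.5 ± 4.07 to 51.1 ± 9.40 CPM (log2 fold change 0.59, edgeR adjusted p = 0.0366), a call lost without Txnip-KO 1, Txnip-KO 2, WT 1, WT 2 or WT 3 (adjusted p 0.0676 to 0.137). Among receptor-positive cells Fasl missed the threshold (log2 fold change 0.58, edgeR adjusted p = 0.059) and Rab27a passed it (log2 fold change 0.76, edgeR adjusted p = 0.0477), except without Txnip-KO 1, Txnip-KO 3, WT 1 or WT 2 (adjusted p 0.0565 to 0.198). Serpinb9 lost its receptor-positive call in edgeR fits without Txnip-KO 3 or WT 3 (adjusted p 0.064 to 0.117) and Serpinb6b without Txnip-KO 1, Txnip-KO 3, WT 1, WT 2 or WT 3 (adjusted p 0.063 to 0.204).

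Nkg7, a granule membrane protein, stood at 1034, 790.2 and 741 CPM in the WT samples against 623, 790.2 and 776 CPM in the Txnip-KO samples in the whole set, with overlapping groups (log2 fold change -0.23, edgeR adjusted p = 0.254). In the narrower set it stood at 1793, 1920.5 and 1716 CPM in the WT against 1135, 1261 and 1209.9 CPM in the Txnip-KO samples, and fell from 1810.0 to 1202 CPM (log2 fold change -0.59, SE 0.09, edgeR adjusted p = 0.000216). There the groups did not overlap. The cathepsin Ctsw fell from 709 to 502 CPM (log2 fold change -0.50, edgeR adjusted p = 0.00585), Cst7, a cathepsin inhibitor, fell from 105 to 67.9 CPM (log2 fold change -0.61, edgeR adjusted p = 0.0221) and Prf1 fell from 131 to 92.0 CPM (log2 fold change -0.53, edgeR adjusted p = 0.0448) in the same cells, none of which passed in the whole set. Of 16 cytotoxic genes tested in the whole set 4 rose and 0 fell, with a median of 0.22, and in the receptor-positive cells 3 rose and 4 fell of 15, with a median of -0.06. Cst7 lost its receptor-positive call in edgeR fits without Txnip-KO 1, Txnip-KO 2, WT 1 or WT 3 (adjusted p 0.0538 to 0.0779) and Prf1 without Txnip-KO 1, Txnip-KO 2, Txnip-KO 3, WT 1 or WT 3 (adjusted p 0.0504 to 0.315).

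Of the factors that set NK and ILC fate, Rora and Tcf7 rose in both sets and Eomes and Tbx21 were not called. Eomes stood at 133, 88.4 and 52.6 CPM in the WT samples against 127, 97.3 and 97.9 CPM in the Txnip-KO samples. Tbx21 (T-bet), which drives NK maturation, stood at 64.1, 42.1 and 36.1 CPM in the WT samples against 47.7, 46.2 and 63.8 CPM in the Txnip-KO samples. The groups overlapped for both (log2 fold change 0.23, edgeR adjusted p = 0.554 for Eomes and log2 fold change 0.16, edgeR adjusted p = 0.646 for Tbx21). Rora, needed by ILC2 and expressed in ILC progenitors, stood at 61.1, 58.0 and 48.2 CPM in the WT samples against 85.9, 115 and 113 CPM in the Txnip-KO samples. Rora rose without overlap (log2 fold change 0.92 with SE 0.16, edgeR adjusted p = 0.0022; log2 fold change 0.56, edgeR adjusted p = 0.039 in the receptor-positive cells). Tcf7 (TCF-1), a factor of early ILC and NK development, stood at 89.8, 59.4 and 48.2 CPM in the WT samples against 137, 117 and 109 CPM in the Txnip-KO samples. Tcf7 rose (log2 fold change 0.88 with SE 0.19, edgeR adjusted p = 0.00862; log2 fold change 0.52, edgeR adjusted p = 0.0351 in the receptor-positive cells). Irf8, which dendritic cells express highly and NK cells at a lower level, stood at 342, 593 and 582 CPM in the WT samples against 199, 196 and 238 CPM in the Txnip-KO samples. It fell in both sets (log2 fold change -1.26 with SE 0.18, edgeR adjusted p = 0.00076; log2 fold change -1.14, edgeR adjusted p = 0.00394 in the receptor-positive cells). Rora lost its receptor-positive call in edgeR fits without Txnip-KO 2, Txnip-KO 3, WT 1 or WT 3 (adjusted p 0.0945 to 0.21) and Tcf7 without Txnip-KO 1, Txnip-KO 2, WT 1 or WT 3 (adjusted p 0.0599 to 0.19). In the same way, Irf8 lost it in edgeR fits without Txnip-KO 3 or WT 1 (adjusted p 0.0503 to 0.0534).

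Lef1, Zeb1, Stat4 and Id2 also rose in the whole set, with edgeR log2 fold changes of 0.83 (adjusted p = 0.0138), 0.65 (adjusted p = 0.0162), 0.61 (adjusted p = 0.0178) and 0.41 (adjusted p = 0.0217). Their calls were lost in edgeR fits that left out a sample. That of Lef1 was lost without Txnip-KO 3, WT 2 or WT 3 (adjusted p 0.0624 to 0.0674) and that of Zeb1 without Txnip-KO 3, WT 2 or WT 3 (adjusted p 0.0735 to 0.0771). That of Stat4 was lost without Txnip-KO 1, Txnip-KO 3, WT 2 or WT 3 (adjusted p 0.0562 to 0.0923) and that of Id2, the inhibitor of E proteins that ILCs need, without Txnip-KO 2, Txnip-KO 3, WT 2 or WT 3 (adjusted p 0.056 to 0.108). Lef1 and Id2 were not called in the receptor-positive cells, at edgeR log2 fold changes of 0.58 (adjusted p = 0.0531) and 0.15 (adjusted p = 0.365). Zeb1 and Stat4 passed there (log2 fold change 0.72, edgeR adjusted p = 0.0157 and log2 fold change 0.40, edgeR adjusted p = 0.046), and Klf2, a factor of quiescence and egress, fell from 375 to 282 CPM (log2 fold change -0.41, edgeR adjusted p = 0.039). Myb, a progenitor factor, fell from 65.4 to 30.8 CPM in them (log2 fold change -1.11, edgeR adjusted p = 0.00544). Over the list of 37 factors, 31 were tested, 6 rose and 1 fell, with a median of 0.27 in the whole set, and 4 rose and 3 fell of 31, with a median of -0.01, in the narrower one. Zeb1 lost its receptor-positive call in edgeR fits without Txnip-KO 3, WT 1 or WT 3 (adjusted p 0.0782 to 0.0952) and Stat4 without Txnip-KO 1, Txnip-KO 3, WT 1, WT 2 or WT 3 (adjusted p 0.0684 to 0.217). In the same way, Klf2 lost it in edgeR fits without Txnip-KO 1, Txnip-KO 2, Txnip-KO 3, WT 1, WT 2 or WT 3 (adjusted p 0.0601 to 0.109). In the same way, Myb lost it in edgeR fits without WT 3 (adjusted p = 0.0678).

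Genes of NK progenitors and immature NK cells were read beside those of mature NK cells and ILC1. Of 16 immature NK genes, all tested, 9 rose and 1 fell, with a median of 0.60. Of 12 mature NK genes tested 1 rose and 2 fell, with a median of 0.12, and of 14 ILC1 genes 3 rose and 0 fell, with a median of 0.28. In the narrower set the immature list had 6 higher and 1 lower of 16 (median 0.13), the mature list 1 higher and 4 lower of 10 (median -0.31) and the ILC1 list 3 higher and 0 lower of 14 (median 0.06). The 3 lists share members (Il7r, Gpr183) and their difference was not tested.

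Il7r rose in both sets. It stood at 213, 219.7 and 251 CPM in the WT samples against 518, 526 and 551 CPM in the Txnip-KO samples, so that every Txnip-KO sample was above every WT sample. It rose from 228 ± 20.5 to 532 ± 17.1 CPM (log2 fold change 1.22 with SE 0.11, edgeR adjusted p = 1.68e-05). Il7r went from 352 to 915 CPM in the receptor-positive cells (log2 fold change 1.38 with SE 0.14, edgeR adjusted p = 7.41e-07). Emb (embigin), a cell adhesion protein of lymphoid progenitors, stood at 368, 385 and 349 CPM in the WT samples against 657, 570.0 and 714 CPM in the Txnip-KO samples. Emb rose (log2 fold change 0.82 with SE 0.11, edgeR adjusted p = 0.000558; log2 fold change 0.91, edgeR adjusted p = 8.64e-05 in the receptor-positive cells). Gpr183 (EBI2), an oxysterol receptor that guides lymphocytes, stood at 44.0, 52.5 and 41.1 CPM in the WT samples against 81.9, 88.1 and 83.2 CPM in the Txnip-KO samples. Gpr183 rose (log2 fold change 0.89 with SE 0.14, edgeR adjusted p = 0.00176; log2 fold change 1.31, edgeR adjusted p = 0.000127 in the receptor-positive cells). None of these 3 genes overlapped between groups.

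At 2000 UMIs per cell, a UMI of Il7r was present in 33.8% ± 8.09 in the WT and 56.2% ± 3.26 in the Txnip-KO samples (SD, n = 3 each; 47.5% and 63.7% before thinning) of the receptor-positive cells, exact permutation p = 0.1. The share was 26.8% ± 4.87 in the WT and 46.0% ± 5.42 in the Txnip-KO samples (SD, n = 3 each; 44.0% and 56.9% before thinning) in the whole set. In Gzma-high NK cells it was 2.17% ± 0.169 in the WT and 3.64% ± 1.53 in the Txnip-KO samples (SD, n = 3 each; 4.71% and 5.54% before thinning). B-lineage cells, of which many express Il7r, gave 46.6% ± 4.12 in the WT and 50.3% ± 7.44 in the Txnip-KO samples (SD, n = 3 each; 74.6% and 61.1% before thinning). The list of ILC2 and ILC progenitor markers, which holds Il7r, Cxcr6, Rora, Tcf7 and Gata3, was at 5 or more UMIs in 36.2 to 44.7% of WT and 47.2 to 55.2% of Txnip-KO receptor-positive cells, with 12 of 13 markers detected and Areg at 0.

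Other ILC1 genes were not called. Cxcr6 stood at 68.4, 57.3 and 72.3 CPM in the WT samples against 64.4, 106 and 83.2 CPM in the Txnip-KO samples (log2 fold change 0.37, edgeR adjusted p = 0.172). Inpp4b stood at 31.8, 26.2 and 20.3 CPM in the WT against 28.2, 55.8 and 37.1 CPM in the Txnip-KO samples (log2 fold change 0.66, edgeR adjusted p = 0.0799). Itga1 (CD49a) stood at 7.33, 10.4 and 11.5 CPM in the WT against 13.4, 23.1 and 16.4 CPM in the Txnip-KO samples (log2 fold change 0.88, edgeR adjusted p = 0.0533). Itga1 did not overlap between groups, while Cxcr6 and Inpp4b did. Without Txnip-KO 1, edgeR gave log2 fold changes of 0.84, adjusted p = 0.0395 for Inpp4b and 1.01, adjusted p = 0.0482 for Itga1. In the receptor-positive cells edgeR gave log2 fold changes of 0.05 (adjusted p = 0.882) for Cxcr6, 0.42 (adjusted p = 0.258) for Inpp4b and 0.64 (adjusted p = 0.324) for Itga1, with none called. Of the mature NK genes, Ly6c2 stood at 92.8, 131 and 86.5 CPM in the WT samples against 65.1, 33.1 and 44.4 CPM in the Txnip-KO samples. Ly6c2 fell without overlap (log2 fold change -1.14 with SE 0.22, edgeR adjusted p = 0.00438; log2 fold change -1.12, edgeR adjusted p = 0.00393 in the receptor-positive cells). Cd27, which falls as NK cells mature, stood at 152, 158 and 158 CPM in the WT against 165, 150.0 and 162 CPM in the Txnip-KO samples and did not pass the test in either set. Ly6c2 lost its receptor-positive call in edgeR fits without WT 1 (adjusted p = 0.0561).

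Ctla2a, Thy1 and Kit, of the immature list, passed the test in the whole set and not in the narrower one, where edgeR gave log2 fold changes of 0.23 (adjusted p = 0.219), 0.30 (adjusted p = 0.297) and 0.04 (adjusted p = 0.943). Ctla2a rose from 393 ± 87.0 to 632 ± 95.4 CPM (log2 fold change 0.69, edgeR adjusted p = 0.00828), a call lost without WT 2 (adjusted p = 0.0517). Thy1 rose from 57.5 ± 6.55 to 88.6 ± 8.73 CPM (log2 fold change 0.64, edgeR adjusted p = 0.0106), a call lost without WT 3 (adjusted p = 0.0543). Kit rose from 51.8 ± 9.06 to 76.4 ± 8.12 CPM (log2 fold change 0.56, edgeR adjusted p = 0.0275), a call lost without Txnip-KO 1, Txnip-KO 2, WT 1 or WT 3 (adjusted p 0.063 to 0.107), and Kit is also in the stem and progenitor list given above. Ly6d, which marks lymphoid progenitors committed to the B lineage, stood at 112, 185 and 348 CPM in the WT samples against 29.5, 103 and 55.6 CPM in the Txnip-KO samples. Ly6d fell (log2 fold change -1.75 with SE 0.38, edgeR adjusted p = 0.00862), a call lost without Txnip-KO 3 (adjusted p = 0.0506). It fell in the receptor-positive cells too (log2 fold change -1.90, edgeR adjusted p = 0.00254), a call lost without WT 3 (adjusted p = 0.0571). Ly6d is the list's 1 fall and is also in the plasmacytoid list, and the part of other cell types in it was not tested.

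Receptors for interleukin-18 and interferon gamma rose with Il7r. Ifngr1, the ligand-binding chain of the interferon gamma receptor, stood at 392, 352 and 393 CPM in the WT samples against 717, 744 and 921 CPM in the Txnip-KO samples. Ifngr1 rose from 379 ± 23.7 to 794 ± 111 CPM (log2 fold change 1.07 with SE 0.11, edgeR adjusted p = 0.000129). Ifngr1 went from 758 to 1353 CPM in the receptor-positive cells (log2 fold change 0.84 with SE 0.12, edgeR adjusted p = 8.66e-05). Il18r1 and Il18rap, the 2 chains of the interleukin-18 receptor, were both higher. Il18r1 stood at 178, 162 and 129.8 CPM in the WT samples against 283, 296 and 324 CPM in the Txnip-KO samples. Il18rap stood at 137, 102 and 104 CPM in the WT samples against 202, 158 and 196 CPM in the Txnip-KO samples. Both rose without overlap, at edgeR log2 fold changes of 0.95 (adjusted p = 0.000727) and 0.69 (adjusted p = 0.00727), and in the receptor-positive cells at 0.63 (adjusted p = 0.00302) and 0.51 (adjusted p = 0.0224). Il21r stood at 45.8, 60.1 and 71.7 CPM in the WT samples against 20.1, 23.1 and 22 CPM in the Txnip-KO samples. Il21r fell (log2 fold change -1.44 with SE 0.19, edgeR adjusted p = 0.000547; log2 fold change -1.19, edgeR adjusted p = 0.00729 in the narrower set). Il2rb, the shared chain of the interleukin-2 and interleukin-15 receptors on which NK cells depend, stood at 379.8, 259 and 227 CPM in the WT against 394, 419 and 388 CPM in the Txnip-KO samples and missed the threshold (log2 fold change 0.47, edgeR adjusted p = 0.0542; log2 fold change 0.17, edgeR adjusted p = 0.361 in the narrower set). Il18rap lost its receptor-positive call in edgeR fits without Txnip-KO 1, Txnip-KO 3, WT 1, WT 2 or WT 3 (adjusted p 0.0562 to 0.104).

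Socs2, a feedback inhibitor of cytokine signals, stood at 25, 27.6 and 28.5 CPM in the WT samples against 101, 119.9 and 90.5 CPM in the Txnip-KO samples. It rose from 27.0 ± 1.79 to 104 ± 14.9 CPM without overlap (log2 fold change 1.94 with SE 0.16, edgeR adjusted p = 1.13e-05). Socs2 went from 67.9 to 191 CPM in the receptor-positive cells (log2 fold change 1.51 with SE 0.18, edgeR adjusted p = 1.25e-05). The signal transducers Stat3, Stat5b and Jak1 rose in the whole set by 0.51, 0.55 and 0.49 on the log2 scale, with edgeR adjusted p of 0.0286, 0.0451 and 0.0461. These calls were lost without Txnip-KO 1, Txnip-KO 3, WT 2 or WT 3 (adjusted p 0.0665 to 0.135) for Stat3, without Txnip-KO 1, Txnip-KO 2, Txnip-KO 3, WT 1, WT 2 or WT 3 (adjusted p 0.0674 to 0.184) for Stat5b and without Txnip-KO 1, Txnip-KO 3, WT 2 or WT 3 (adjusted p 0.125 to 0.19) for Jak1, and none passed in the receptor-positive cells. Of 30 cytokine receptors and transducers tested 9 rose and 1 fell, with a median of 0.40, and in the receptor-positive cells 6 rose and 1 fell of 28, with a median of 0.30.

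Of 23 genes of homing and adhesion tested 3 rose and 1 fell, with a median of 0.20, and in the receptor-positive cells 2 rose and 3 fell of 20, with a median of 0.07. The called share was 17.4% beside 14.8% over all genes tested, and 25.0% beside 11.2% in the receptor-positive cells. Itgb7, the gut-homing integrin beta chain, stood at 175, 218 and 174 CPM in the WT samples against 111, 128 and 127 CPM in the Txnip-KO samples. Itgb7 fell without overlap (log2 fold change -0.62 with SE 0.13, edgeR adjusted p = 0.00677; log2 fold change -0.74, edgeR adjusted p = 0.0128 in the receptor-positive cells). Cxcr4, which holds cells in the marrow, rose from 53.4 ± 14.0 to 83.8 ± 13.6 CPM (log2 fold change 0.63, edgeR adjusted p = 0.0335; log2 fold change 0.88, edgeR adjusted p = 0.0313 in the receptor-positive cells), a call lost in the whole set without Txnip-KO 1, WT 1 or WT 2 (adjusted p 0.114 to 0.124). Itgb1, an integrin beta chain, fell in the receptor-positive cells and was not called in the whole set, from 450.0 to 333 CPM (log2 fold change -0.43, edgeR adjusted p = 0.025). Itgb7 lost its receptor-positive call in edgeR fits without Txnip-KO 1 or Txnip-KO 3 (adjusted p 0.0663 to 0.0664) and Cxcr4 without Txnip-KO 1, Txnip-KO 3, WT 1 or WT 2 (adjusted p 0.0815 to 0.228). In the same way, Itgb1 lost it in edgeR fits without Txnip-KO 1, Txnip-KO 3, WT 1 or WT 2 (adjusted p 0.058 to 0.131).

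**Figure D3:**
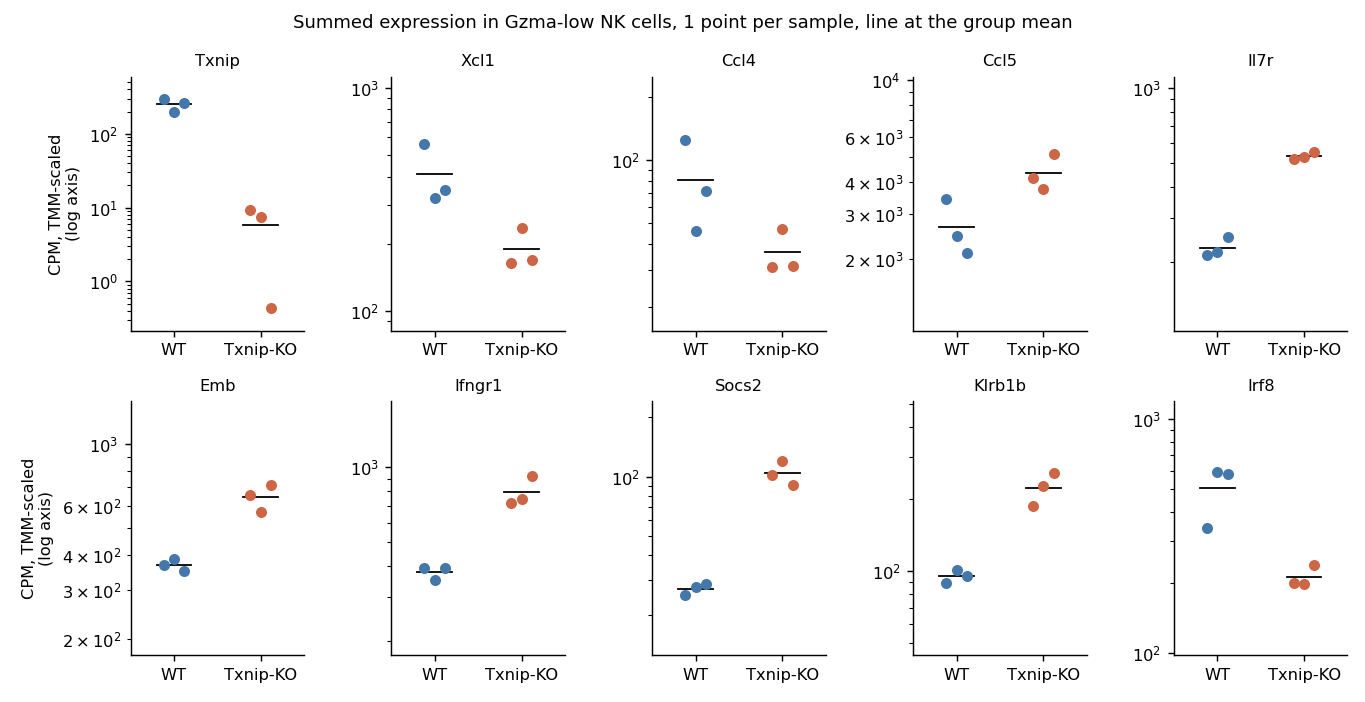
CPM (TMM-scaled, log axis) of the named genes in Gzma-low NK-gated cells, with 1 point per sample and a line at each group mean. Txnip, Xcl1 and Irf8 are lower and Ccl5, Il7r, Emb, Ifngr1, Socs2 and Klrb1b higher in all 3 Txnip-KO samples, while Ccl4 overlaps.

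The largest rises over all genes, by the rule for named genes, included Arrdc4, Klf10, Klf9, Tsc22d3 and Pik3ip1. Arrdc4, a relative of Txnip that is also driven by MondoA, stood at 10.4, 12.4 and 13.1 CPM in the WT samples against 63.8, 49.3 and 65.1 CPM in the Txnip-KO samples (log2 fold change 2.29 with SE 0.20, edgeR adjusted p = 1.45e-05). Arrdc4 went from 7.76 to 61.6 CPM in the receptor-positive cells (log2 fold change 2.90 with SE 0.31, edgeR adjusted p = 1.63e-06). Klf10 stood at 15.3, 20 and 16.4 CPM in the WT samples against 79.2, 67.2 and 84.1 CPM in the Txnip-KO samples (log2 fold change 2.16 with SE 0.17, edgeR adjusted p = 1.06e-05). Klf9 stood at 10.4, 11.7 and 5.48 CPM in the WT against 38.3, 42.3 and 27.2 CPM in the Txnip-KO samples (log2 fold change 1.98, edgeR adjusted p = 0.000764). Tsc22d3 (GILZ), induced by glucocorticoids and FoxO factors, stood at 54.3, 74.6 and 105 CPM in the WT samples against 290.0, 233 and 186 CPM in the Txnip-KO samples (log2 fold change 1.59 with SE 0.21, edgeR adjusted p = 0.000547). Pik3ip1, an inhibitor of PI3 kinase, stood at 18.9, 31.1 and 44.4 CPM in the WT against 109, 88.5 and 66.8 CPM in the Txnip-KO samples (log2 fold change 1.46, edgeR adjusted p = 0.0022). For all 5 genes each Txnip-KO sample was above each WT sample, and all 5 passed in the receptor-positive cells.

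Cpne7 (a copine) stood at 12.2, 7.60 and 3.29 CPM in the WT samples against 54.4, 40.1 and 46.1 CPM in the Txnip-KO samples (log2 fold change 2.61 with SE 0.30, edgeR adjusted p = 0.000206). Polr3gl, a subunit of RNA polymerase III, stood at 36.0, 32.5 and 36.7 CPM in the WT samples against 211, 142 and 79.3 CPM in the Txnip-KO samples (log2 fold change 2.02 with SE 0.28, edgeR adjusted p = 0.000711). Polr3gl lies at chr3:96577872-96594181, near Txnip on chromosome 3. Whether the altered Txnip gene changes this neighbour locally was not tested. Bbc3 (PUMA) and Bcl2l11 (BIM), which promote apoptosis, rose from 19.7 ± 5.43 to 50.4 ± 5.60 CPM (log2 fold change 1.36, edgeR adjusted p = 0.00108) and from 27.5 ± 10.1 to 66.7 ± 8.51 CPM (log2 fold change 1.27, edgeR adjusted p = 0.00193), and both passed in the receptor-positive cells. Fam184a, Gabbr1, Tmem106b and Abca1 also rank among the largest rises, at log2 fold changes of 1.98, 1.5, 1.44 and 1.44. All 4 passed in the receptor-positive cells, as did Cpne7 (log2 fold change 2.32, edgeR adjusted p = 4.08e-06) and Polr3gl (log2 fold change 1.89, edgeR adjusted p = 0.000316), and Gabbr1 lost that call without Txnip-KO 3, WT 1 or WT 3 (adjusted p 0.0797 to 0.147). Among the rises that the rule named, the fold was largest for Pf4, a platelet chemokine, at 0.611, 0.691 and 3.83 CPM in the WT samples against 30.2, 239 and 19.0 CPM in the Txnip-KO samples (log2 fold change 5.70, edgeR adjusted p = 0.005). Most of it came from Txnip-KO 2, the megakaryocyte list summed to 8.62 to 21.9 CPM in WT and 51.9 to 319 CPM in Txnip-KO samples, and the gene was too low for the test in the receptor-positive cells.

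Lars2 and Oxct1 were among the largest falls and were called in both sets. Lars2, the mitochondrial leucyl-tRNA synthetase, stood at 635, 443 and 484 CPM in the WT samples against 149.7, 90.7 and 109 CPM in the Txnip-KO samples. Lars2 fell (log2 fold change -2.17 with SE 0.18, edgeR adjusted p = 1.06e-05). Lars2 went from 734 to 141 CPM in the receptor-positive cells (log2 fold change -2.43 with SE 0.19, edgeR adjusted p = 2.33e-08). Oxct1, the enzyme that activates ketone bodies for use, stood at 72.1, 73.9 and 63.0 CPM in the WT samples against 16.1, 18.3 and 12.9 CPM in the Txnip-KO samples. Oxct1 fell (log2 fold change -2.14 with SE 0.17, edgeR adjusted p = 1.06e-05; log2 fold change -2.29, edgeR adjusted p = 4.34e-05 in the receptor-positive cells). Neither gene overlapped between groups. Mcpt8, a basophil protease, stood at 58.0, 12.4 and 382 CPM in the WT samples against 12.1, 3.05 and 4.31 CPM in the Txnip-KO samples (log2 fold change -4.70, edgeR adjusted p = 0.00625), and most of its WT level was in WT 3. Mcpt8 fell in the receptor-positive cells (log2 fold change -5.30, edgeR adjusted p = 0.00238), and not without WT 3 (adjusted p = 0.312). The basophil and mast cell list summed to 111 to 1064 CPM in WT and 161 to 188 CPM in Txnip-KO samples, highest in WT 3.

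The other large falls were of dividing cells and other lineages. H1f5, Pclaf, Birc5, Tpx2, Spc24 and Ube2c, genes of dividing cells, fell by 2.46, 2.36, 1.95, 1.88, 1.74 and 1.70 on the log2 scale. Ebf1, the B-cell factor, stood at 136, 57.3 and 114 CPM in the WT against 53.0, 21.4 and 17.2 CPM in the Txnip-KO samples (log2 fold change -1.84, edgeR adjusted p = 0.00435). Cox6a2, high in plasmacytoid dendritic cells, stood at 118, 171 and 191 CPM in the WT against 33.6, 69.8 and 41.8 CPM in the Txnip-KO samples (log2 fold change -1.70, edgeR adjusted p = 0.000623). Aif1 and Slpi, of myeloid cells, fell by 1.78 and 1.69, and Myl4 by 2.03. Of these genes only H1f5 passed in the receptor-positive cells (log2 fold change -3.02, edgeR adjusted p = 0.00282), where Ebf1 (log2 fold change -1.58, edgeR adjusted p = 0.0921) and Myl4 (log2 fold change -1.30, edgeR adjusted p = 0.0966) missed the threshold and the other genes were too low to be tested. H1f5 lost its receptor-positive call in edgeR fits without Txnip-KO 3 or WT 3 (adjusted p 0.0529 to 0.0582).

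Pathway lists were read in both sets. Among arrestin-family and MondoA-linked genes 7 rose and 1 (Txnip) fell of 14 tested, with a median of 0.62, and 3 rose and 1 fell of 9 in the receptor-positive cells (median 0.61). Besides Arrdc4 and Klf10, Pfkfb3, which raises glycolytic flux, rose from 9.52 ± 2.06 to 23.6 ± 2.43 CPM (log2 fold change 1.33 with SE 0.24, edgeR adjusted p = 0.00344). Ddit4, an mTORC1 inhibitor, rose from 35.6 ± 14.5 to 94.2 ± 44.6 CPM (log2 fold change 1.36, edgeR adjusted p = 0.0124), a call lost without WT 2 (adjusted p = 0.0536). Pfkfb3 was too low to be tested in the receptor-positive cells, where Ddit4 was not called (log2 fold change 0.72, edgeR adjusted p = 0.182). Among FoxO and insulin-feedback genes, which include Il7r, 8 rose and 0 fell of 24 (median 0.38), and 5 rose and 2 fell of 19 in the narrower set (median 0.31). Of 21 apoptosis genes 3 rose and 0 fell (median 0.27), with 3 and 0 of 18 in the narrower set (median 0.24). The called share of these genes was 14.3% beside 14.8% over all genes tested, and 16.7% beside 11.2% in the narrower set.

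Of the 78 nuclear genes of the respiratory chain, all tested, 0 rose and 39 fell, with a median of -0.41, and 0 rose and 26 fell in the receptor-positive cells, with a median of -0.37. Cox7b, a subunit of complex IV, stood at 359.7, 366 and 399 CPM in the WT samples against 210.1, 266 and 215 CPM in the Txnip-KO samples. Cox7b fell (log2 fold change -0.70 with SE 0.12, edgeR adjusted p = 0.00226). Cycs (cytochrome c) stood at 228, 244 and 232 CPM in the WT samples against 147, 163 and 144 CPM in the Txnip-KO samples. Cycs fell (log2 fold change -0.63 with SE 0.11, edgeR adjusted p = 0.003). Atp5pb and Atp5o, of the ATP synthase, fell by 0.615 and 0.632 on the log2 scale. All 4 genes were lower in every Txnip-KO sample and passed in both sets. Cycs lost its receptor-positive call in edgeR fits without Txnip-KO 3 or WT 1 (adjusted p 0.0628 to 0.0854) and Atp5pb without Txnip-KO 1, Txnip-KO 3, WT 1 or WT 3 (adjusted p 0.0526 to 0.0781).

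Of the 13 mitochondrially encoded genes, 1 rose and 2 fell in the whole set (median -0.14), and 1 rose and 5 fell in the narrower one (median -0.24). The rise was of mt-Co1, a complex IV subunit, at 4052, 4097 and 3954 CPM in the WT samples against 5623, 5562 and 5384 CPM in the Txnip-KO samples (log2 fold change 0.45 with SE 0.06, edgeR adjusted p = 0.000547). The ATP synthase gene mt-Atp8 fell from 125 ± 3.87 to 81.8 ± 7.76 CPM (log2 fold change -0.61, edgeR adjusted p = 0.00676). Both were also called in the receptor-positive cells, at edgeR log2 fold changes of 0.42 (adjusted p = 0.000277) and -0.59 (adjusted p = 0.0192), and mt-Atp8 lost that call without Txnip-KO 1, Txnip-KO 3, WT 1 or WT 3 (adjusted p 0.0567 to 0.0967). The median mitochondrial share of UMIs per cell was 3.16 ± 0.0342 in WT against 3.26 ± 0.0972 in Txnip-KO samples (SD, n = 3 each), in percent, and did not separate the groups (exact permutation p = 0.2).

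Fuel genes were mixed. Of 25 glucose uptake and glycolysis genes 3 rose and 2 fell (median -0.13), with 0 and 3 of 15 in the receptor-positive cells (median -0.27). Hexokinase 2 (Hk2) and Pgk1 were the falls, from 27.3 ± 5.22 to 13.6 ± 4.18 CPM (log2 fold change -1.05, edgeR adjusted p = 0.0137) and from 152 ± 4.51 to 106 ± 16.9 CPM (log2 fold change -0.52, edgeR adjusted p = 0.0191). The call of Hk2 was lost in edgeR fits without Txnip-KO 3, WT 2 or WT 3 (adjusted p 0.0619 to 0.0661) and that of Pgk1 without Txnip-KO 1, Txnip-KO 3, WT 2 or WT 3 (adjusted p 0.0608 to 0.0745). Hk2 was too low to be tested in the receptor-positive cells, where Pgk1 fell (log2 fold change -0.63, edgeR adjusted p = 0.00918), a call lost without Txnip-KO 3 or WT 1 (adjusted p 0.0549 to 0.061). Of 22 genes of ketone and fat use 4 rose and 2 fell (median 0.10), with 2 and 2 of 20 in the narrower set (median 0.04). The carnitine transferase Cpt1a stood at 22.6, 21.4 and 27.9 CPM in the WT against 53.7, 47.1 and 59.5 CPM in the Txnip-KO samples (log2 fold change 1.14 with SE 0.17, edgeR adjusted p = 0.00108). Slc25a20, the carnitine carrier, stood at 12.8, 13.1 and 10.4 CPM in the WT against 29.5, 22.7 and 34.5 CPM in the Txnip-KO samples (log2 fold change 1.26, edgeR adjusted p = 0.00404). Both rose, also in the receptor-positive cells, and Oxct1 fell. Of 23 thioredoxin and antioxidant genes 1 rose and 5 fell (median -0.15), led by Gpx1 at 647, 939 and 909.6 CPM in the WT against 505, 527 and 451 CPM in the Txnip-KO samples (log2 fold change -0.75, edgeR adjusted p = 0.00272; log2 fold change -0.71, edgeR adjusted p = 0.0122 in the receptor-positive cells). Cpt1a lost its receptor-positive call in edgeR fits without Txnip-KO 3 or WT 1 (adjusted p 0.0503 to 0.0803) and Slc25a20 without Txnip-KO 3, WT 1 or WT 2 (adjusted p 0.0522 to 0.127). In the same way, Gpx1 lost it in edgeR fits without Txnip-KO 1, Txnip-KO 3, WT 1 or WT 3 (adjusted p 0.0547 to 0.102).

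More genes of growth and division fell than rose. Of 30 ribosome biogenesis and MYC-linked genes 0 rose and 6 fell (median -0.35), and in the receptor-positive cells 0 rose and 11 fell of 28 (median -0.57). Eif4a1, a translation initiation helicase, stood at 608, 611 and 723 CPM in the WT samples against 324, 424 and 347 CPM in the Txnip-KO samples (log2 fold change -0.83 with SE 0.12, edgeR adjusted p = 0.000947; log2 fold change -0.98, edgeR adjusted p = 0.000123 in the receptor-positive cells), without overlap. Of 39 S phase genes 28 fell (median -0.85) and of 46 mitosis genes 29 fell (median -0.85), and none of either list rose. In the narrower set 8 of 24 (median -0.62) and 5 of 17 (median -0.49) fell. Pcna, the replication clamp, stood at 149.6, 159 and 194 CPM in the WT samples against 65.8, 103 and 81.5 CPM in the Txnip-KO samples (log2 fold change -1.0 with SE 0.16, edgeR adjusted p = 0.00181; log2 fold change -1.02, edgeR adjusted p = 0.000428 in the receptor-positive cells). The share of dividing cells was lower in Txnip-KO samples, as given above, and edgeR called 1156 genes with the dividing cells left out.

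Of 20 cholesterol synthesis genes 12 fell and 0 rose in the whole set (median -0.79), among them Fdps, at 47.0, 55.9 and 65.2 CPM in the WT samples against 13.4, 17.0 and 24.6 CPM in the Txnip-KO samples (log2 fold change -1.58 with SE 0.21, edgeR adjusted p = 0.000559). Among receptor-positive cells only 7 of the list were high enough to test and 1 (Ebp) fell (median -0.45), so for most of them no call can be made there. Interferon response genes fell in 7 of 33 cases and rose in 0 (median -0.30), and in 8 of 24 in the narrower set (median -0.38). Bst2 fell from 272 ± 53.7 to 117 ± 10.2 CPM (log2 fold change -1.22, edgeR adjusted p = 0.000362; log2 fold change -1.20, edgeR adjusted p = 0.000491 in the receptor-positive cells). Ifi27l2a fell from 200 ± 51.5 to 63.3 ± 6.93 CPM in the whole set (log2 fold change -1.65, edgeR adjusted p = 0.000129) and not in the receptor-positive cells (log2 fold change -0.06, edgeR adjusted p = 0.961).

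MHC class I genes split: 2 rose and 3 fell of 16 (median -0.02), with 2 and 4 in the receptor-positive cells (median -0.15). H2-Q6, a nonclassical class I gene, rose from 116 ± 19.8 to 214 ± 9.14 CPM (log2 fold change 0.89, edgeR adjusted p = 0.00108; log2 fold change 0.57, edgeR adjusted p = 0.00952 in the receptor-positive cells). The immunoproteasome subunit Psmb10 fell from 207 ± 9.66 to 141 ± 12.9 CPM (log2 fold change -0.55, edgeR adjusted p = 0.00794; log2 fold change -0.68, edgeR adjusted p = 0.00246 in the receptor-positive cells). Of 14 ATF4 and amino acid genes 1 rose and 1 fell (median -0.24), with 0 and 2 of 10 in the narrower set (median -0.26). No immediate early gene of 19 was called by edgeR or DESeq2 in the whole set (median 0.21; 4 had an unadjusted edgeR p under 0.05), nor by edgeR of 13 in the narrower one (median 0.18; 2 had an unadjusted p under 0.05). Jun, Jund and Junb stood at edgeR adjusted p of 0.0672, 0.0934 and 0.136. H2-Q6 lost its receptor-positive call in edgeR fits without Txnip-KO 1, WT 1 or WT 3 (adjusted p 0.0514 to 0.0738).

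**Figure D4:**
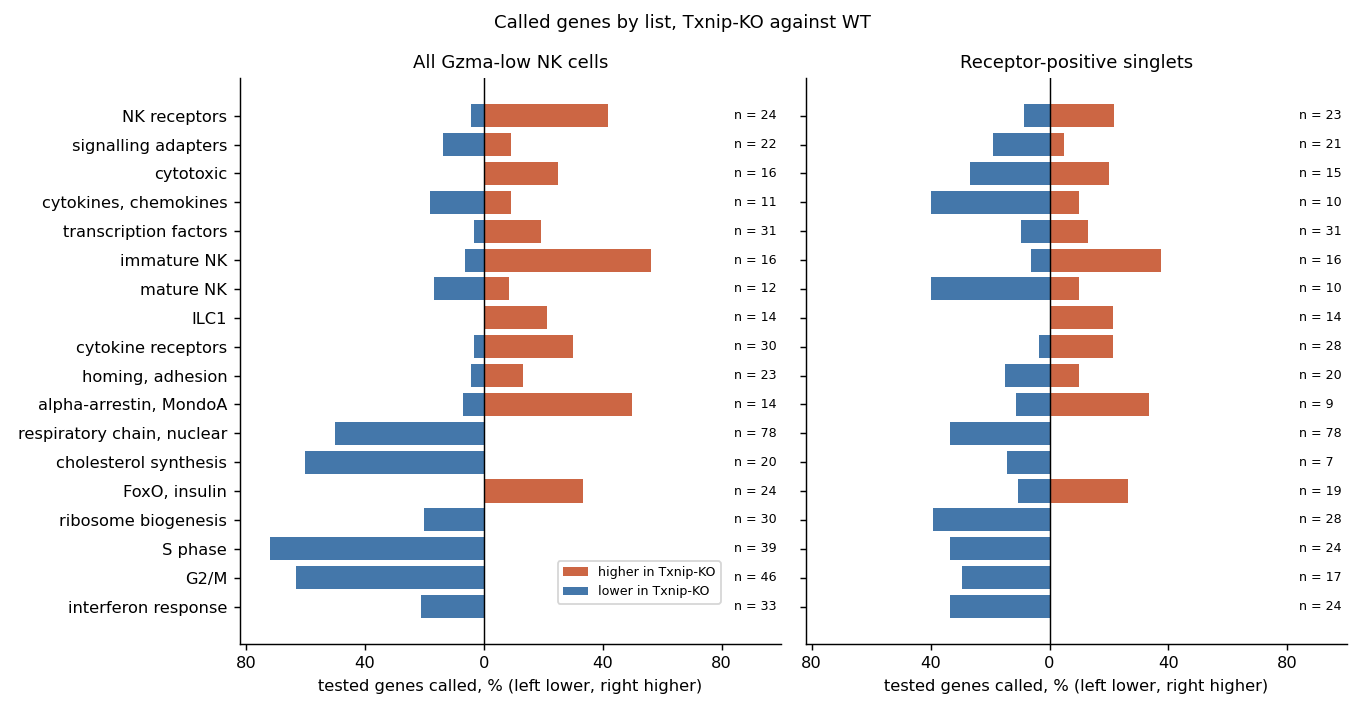
Percent of the tested genes of each list that were called lower (left of 0) or higher (right of 0) in Txnip-KO by edgeR at an adjusted p under 0.05, for all Gzma-low NK-gated cells and for the receptor-positive cells, with n the genes tested. S phase and G2/M (mitosis) genes and nuclear respiratory chain genes extend to the left in both panels, and NK receptors and immature NK genes to the right.

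The genotype effect was then compared with that in the Gzma-high NK cells of the same samples. Gzma-high cells held more UMIs, and edgeR called 2855 of 10868 genes in them (26.3%), and 1783, 1879 and 1638 without WT 1, WT 2 or WT 3. The difference between the 2 effects was tested in 1 edgeR model with the sample as a block, and it was called in 53 of 10895 genes (0.486%). That count was 3 without WT 2, 4 without Txnip-KO 2, 7 without Txnip-KO 3, 132 without Txnip-KO 1 and 151 without WT 1, and 9 in the receptor-positive cells. Most changes of the Gzma-low cells were thus not shown to differ from those of the Gzma-high cells, and a gene called in 1 set only is not shown to be particular to it.

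Xcl1 fell less in Gzma-low than in Gzma-high cells. In Gzma-high cells it stood at 586, 630.4 and 525 CPM in the WT samples against 100, 119.8 and 107 CPM in the Txnip-KO samples and fell from 581 to 109 CPM (log2 fold change -2.42, edgeR adjusted p = 2.54e-07). The difference of the effects was 1.29, SE 0.18, edgeR adjusted p = 0.0133, on the log2 scale. Irf8, lower in Txnip-KO Gzma-low cells, stood at 246, 229 and 191 CPM in the WT against 387, 348 and 302 CPM in the Txnip-KO samples in Gzma-high cells and rose there (log2 fold change 0.64, edgeR adjusted p = 0.00309), a difference of -1.90, SE 0.23, edgeR adjusted p = 0.00517. Thy1, an adhesion protein of T cells and ILCs, went from 57.5 to 88.6 CPM in Gzma-low and fell from 119 to 82.7 CPM in Gzma-high cells (log2 fold change -0.52, edgeR adjusted p = 0.00188), a difference of 1.13, SE 0.14, edgeR adjusted p = 0.00517. Cd24a, a marker of immature lymphoid cells, fell from 86.3 to 52.8 CPM in Gzma-low (log2 fold change -0.69, edgeR adjusted p = 0.0175) and rose from 21.6 to 41.5 CPM in Gzma-high cells (log2 fold change 0.93, edgeR adjusted p = 0.00799), a difference of -1.67, SE 0.14, edgeR adjusted p = 0.000244. Cd24a was not called in the receptor-positive cells (log2 fold change -0.67, edgeR adjusted p = 0.263). The fall of Cd24a in the Gzma-low cells was lost without Txnip-KO 1 or WT 3 (adjusted p 0.0545 to 0.0903). Klra1 (Ly49A) fell from 127 to 55.1 CPM in Gzma-high cells (log2 fold change -1.22, edgeR adjusted p = 0.000201) and was not called in Gzma-low cells (log2 fold change 0.50, edgeR adjusted p = 0.142), a difference of 1.68, SE 0.23, edgeR adjusted p = 0.0133. In edgeR fits of this difference with 1 sample left out, the calls of Xcl1 were lost without Txnip-KO 2, Txnip-KO 3 or WT 2 (adjusted p 0.0522 to 0.0923). By edgeR those of Irf8 were lost without Txnip-KO 2 or WT 2 (adjusted p 0.0506 to 0.0522) and those of Klra1 without Txnip-KO 3 or WT 2 (adjusted p 0.0834 to 0.0846). In the narrower set the differences of Xcl1 and Irf8 passed, and those of Cd24a, Thy1 and Klra1 had edgeR adjusted p of 0.199, 0.133 and 0.117.

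The changes of Il7r, Klrb1b, Ccl5, Arrdc4, Oxct1 and Lars2 had the same direction in both sets. Il7r had log2 fold changes of 1.22 in Gzma-low and 0.74 in Gzma-high cells (difference 0.46, SE 0.17, edgeR adjusted p = 0.327), from levels of 381 and 28.0 CPM. Klrb1b had 1.23 and 1.27 (difference -0.04, SE 0.22, edgeR adjusted p = 0.977), and Ccl5 0.70 and 0.34 (difference 0.35, SE 0.16, edgeR adjusted p = 0.462). Arrdc4, Oxct1 and Lars2 had 2.29, -2.14 and -2.17 against 3.02, -1.84 and -2.35. Both sets come from the same 6 libraries, so they share depth and free RNA.

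**Figure D5:**
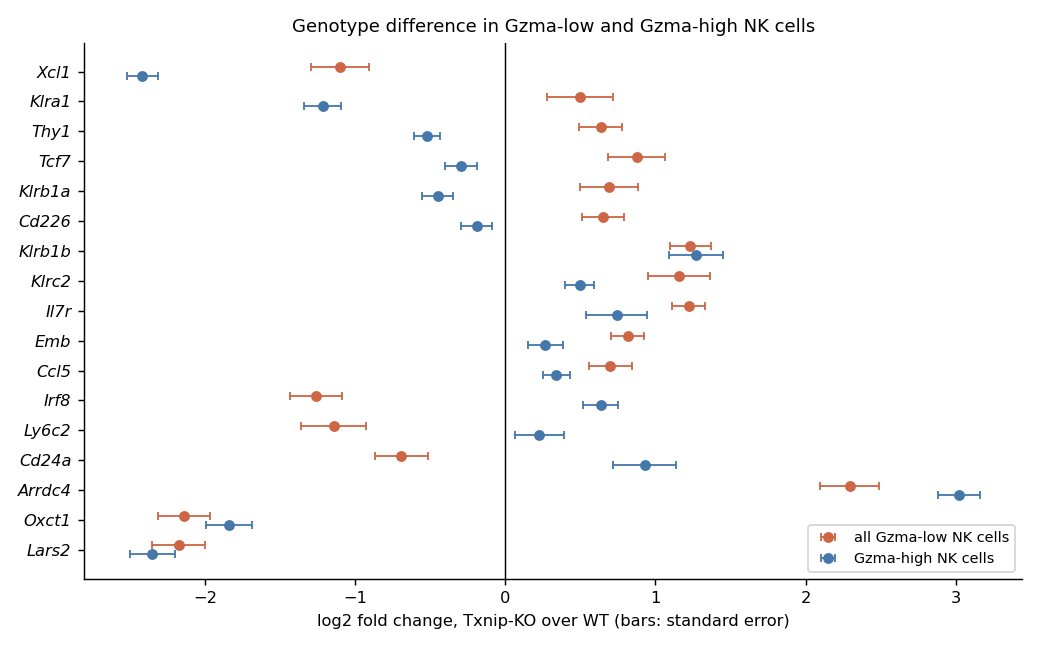
Log2 fold change of Txnip-KO over WT (horizontal axis, bars for the standard error) for the named genes in all Gzma-low NK-gated cells and in Gzma-high NK cells. The points of Xcl1, Klra1, Thy1, Irf8 and Cd24a lie apart, and those of Klrb1b, Oxct1 and Lars2 lie closer together.

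The main results were looked at in receptor-positive cells with and without an Eomes UMI, which hold 37 to 105 and 57 to 194 cells per sample. By edgeR, the log2 fold change of Xcl1 was -1.56 (adjusted p = 8.9e-07) with and -1.32 (adjusted p = 3.79e-07) without an Eomes UMI, and that of Il7r 1.07 (adjusted p = 0.000258) with and 1.29 (adjusted p = 2.71e-07) without. By edgeR again, the value for Klrb1b was 1.10 (adjusted p = 0.00067) with and 0.66 (adjusted p = 0.0127) without, and that of Socs2 1.60 (adjusted p = 0.000972) with and 1.38 (adjusted p = 3.63e-05) without. By the same edgeR fits Ifngr1 changed by 1.10 (adjusted p = 7.55e-05) with and 0.66 (adjusted p = 0.00108) without, and Ccl5 by 0.46 (adjusted p = 0.000272) with and 0.44 (adjusted p = 0.0197) without. In these edgeR fits Nkg7 changed by -0.49 (adjusted p = 0.000618) with and -0.52 (adjusted p = 0.00261) without. All 7 genes passed the test on both sides of the split, Xcl1 and Nkg7 downward and the others upward. They were already called in the receptor-positive cells, and both sides are parts of those cells, so these calls are not separate results. Other genes changed sign against the whole set: Ltb and Zeb2 without and Ikzf2 and Kit with an Eomes UMI. The split itself depends on depth, as given above. The difference between the 2 sides was not tested.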

How the data were processed

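The measurement was single-cell 3' RNA sequencing of 6 sorted bone marrow samples, 3 WT and 3 Txnip-KO. The deposited matrices hold raw UMI counts per gene and barcode, which the authors made with CASAVA 1.8, Cell Ranger 6.1.1 and Seurat 2.3.4, per the submitters' processing notes, which give these names without roles. The genome build and the strand setting of the counting were not given in the sources used here. Of 31253 features, 31107 matched a GENCODE M21 gene by identifier.

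The matrices were read as deposited, the cell filter and the rule were applied to raw counts, and UMIs were summed per sample. Of 6973 to 9063 deposited barcodes per sample, 6379 to 8439 passed the filter. Genes were kept by filterByExpr (minimum count 10) and tested with the quasi-likelihood test of edgeR 4.0.16 (R 4.3.3, limma 3.58.1) with TMM scaling, DESeq2 1.42.0 serving as an alternative. Shares and depths were compared by the exact 2-sided permutation test over samples. Scrublet, as run by scanpy 1.11.5, scored doublets, the top 0.8% per 1000 barcodes of a sample being marked, and these were left in the whole set and removed from the receptor-positive cells. Shares at equal depth used cells thinned to 2000 UMIs, with shallower cells left out. The edgeR script was tested on simulated data. Shares of cells carry counting error, and free RNA was not removed.

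The members and the gene lists were chosen with earlier results of these data known, and the receptor-positive set, its Eomes split and its alternatives were added after the values were seen. Named genes were Txnip, the genes of the rule and Xcl1 as levels, the 15 largest rises and falls among called genes whose mean reached 20 CPM and whose groups did not overlap, up to 4 genes per list by the smallest p, NK genes of at least 20 CPM, and the 5 smallest p of the difference between Gzma-low and Gzma-high cells. Genes without a standard name were left out. Replicate numbers were not used as pairs: the deviations of same-numbered samples correlated at 0.122, -0.0813 and 0.162 over 5949 genes.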

Additional observations from a re-analysis of the deposited data

Results flagged for a closer look

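The genotype effect differed between Gzma-low and Gzma-high NK-gated cells for 5 named genes, by edgeR's interaction test with the sample as a block. The log2 fold change of Txnip-KO over WT was lower in the Gzma-low cells by -1.671 for Cd24a (adjusted p = 0.000244) and by -1.895 for Irf8 (adjusted p = 0.00517), both of which fell in Gzma-low and rose in Gzma-high cells. It was higher in the Gzma-low cells by 1.128 for Thy1 (adjusted p = 0.00517), which rose in Gzma-low and fell in Gzma-high cells, by 1.68 for Klra1 (adjusted p = 0.0133) and by 1.295 for Xcl1 (adjusted p = 0.0133), which fell in both. Restricted to cells with a UMI of Ncr1 or Klrb1c, the edgeR difference still passed for Irf8 (adjusted p = 0.000256) and Xcl1 (adjusted p = 0.00176).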

How the results depend on the processing

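The count of 1415 called genes in the Gzma-low cells was 979 with DESeq2's Wald test, 1444 with DESeq2 size factors, 1902 with no filter on low counts, 1603 with doublets removed and 1409 with the replicate number as a block. It was 789 in the receptor-positive cells (620 with the replicate block), 423 in those with and 390 in those without an Eomes UMI, 926 with at least 5 NK receptor UMIs, 618 in thinned cells and 249 with cells holding other types' markers left out. These alternatives kept fewer cells or UMIs and tested fewer genes. Leaving out 1 sample gave 596 to 1519 calls in the whole set, 375 to 926 in the receptor-positive cells, 1638 to 2888 in the Gzma-high cells and 3 to 151 for the difference between both NK sets. That difference gave 53 calls over all cells, 9 in receptor-positive cells, 361 with no filter on low counts and 80 with doublets removed, and the cause was not tested.

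With the replicate block 1298 of 1409 calls were shared with the fit without it, and same-numbered samples did not each correlate best with one another, since WT 2 was closest to Txnip-KO 1 (0.127). Of the single-gene values under all alternatives, 5456 kept their side of the threshold, 539 no longer passed and 172 newly passed. Another 6 changed sign, with the gene called in the main fit, the alternative or both. A change of sign in a gene called in neither fit was counted among the 5456. The 6 that changed sign were Klrb1a (-0.071 with cells holding other types' markers left out), Klre1 (-0.41 with the rule applied to thinned counts), Ltb (-0.35) and Zeb2 (-1.05) without Eomes, and Ikzf2 (-0.96) and Kit (-0.81) with Eomes, all as log2 fold changes, and the cause was not tested. The Gzma-low share of filtered barcodes was 0.968 to 1.81 percentage points higher in Txnip-KO samples with 1 sample left out, beside 1.37 with all. Genes at a few UMIs per sample, among them most cholesterol synthesis genes, could not be tested in the receptor-positive cells.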
